A study of Mus musculus with 10 samples.

Results

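Oxidative phosphorylation is carried out by 5 protein complexes of the inner mitochondrial membrane, and the genes of the nuclear genome that encode their subunits were followed in microglia from mice given the kinase inhibitor GW2580 or its vehicle. Members were taken by gene symbol: protein-coding genes whose RefSeq symbol begins with Ndufa, Ndufb, Ndufc, Ndufs or Ndufv and a number, Sdha to Sdhd, and the Uqcr, Cox4 to Cox8 and Atp5 families. This gave 87 of the 46152 genes counted, with 40 in complex I, 4 in complex II, 8 in complex III, 18 in complex IV and 17 in complex V. Of these, 84 had at least 1 count and 82 passed the filter of more than 1 CPM (counts scaled to a common library size) in at least 3 libraries.

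The microglia came from the brains of 10 adult C57BL/6J mice, 5 per group, of which replicates 1 and 2 were male and replicates 3 to 5 female. Vehicle mice received 0.1% Tween 80 and 0.5% Hydroxymethyl Propyl-cellulose by gavage for 8 days, and treated mice received 80 mg/kg/d of GW2580, an inhibitor of the receptor CSF1R, by the same route for the same time. Cells were enriched on a Percoll gradient and by magnetic selection for CD11b, a surface protein that monocytes and granulocytes also carry. Each mouse gave 1 cDNA library, made with a SMART-Seq kit for very low amounts of total RNA. The comparison asks how the inhibitor changed the transcripts of the isolated cells.

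Complexes I to IV pass electrons from NADH and succinate to oxygen, and complexes I, III and IV pump protons across the inner membrane as they do so. Complex V, the ATP synthase, lets the protons back through its membrane part and makes ATP on its catalytic head. Each complex has catalytic subunits, conserved since bacteria, and complexes I, III, IV and V also have smaller accessory subunits that hold the assembly together. Some complex IV subunits have isoforms used mainly in muscle, lung or testis. Complex II alone has no subunit encoded by mitochondrial DNA. The 13 subunits that the mitochondrial DNA encodes were not among the genes counted and are not analysed here.

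The libraries held 12550418 to 26079343 fragments assigned to genes. Of the uniquely aligned fragments, 47.7 to 59.8% lay on no annotated exon in Vehicle libraries and 47.1 to 70.8% in GW2580 libraries. Microglial markers were present in every library (8 of 10 genes tested, summed level 13933 to 20659 CPM with vehicle and 15127 to 54258 CPM with GW2580), while Aif1 was at 0 in all of them and Trem2 had 2 counts in all. These 2 markers are annotated on more than 1 sequence of the assembly, as are the subunit genes without counts described at the end. Markers of other cell types stood out in 3 vehicle libraries. The summed level of 6 oligodendrocyte markers was 14930 CPM in Vehicle 2 and 3171 CPM in Vehicle 5 against 147 to 1424 CPM in the other 8. Mbp alone gave 14645 and 2508 CPM of these 2 sums. That of 4 ependymal and choroid plexus markers was 25142 CPM in Vehicle 5 against 142 to 3504 CPM elsewhere. Nearly all of the Vehicle 5 sum came from Ttr. Among the other markers of this set, Foxj1 and Rsph1 were also highest in Vehicle 5 (123 and 98.4 CPM). Ccdc153 was at 0.393 CPM there, against 0.919 to 3.93 CPM in the other Vehicle libraries. The summed level of 6 monocyte and granulocyte markers was 12930 CPM in Vehicle 1 against 161 to 3614 CPM elsewhere, and that of 3 erythroid markers was 1685 CPM in Vehicle 5 against 30.5 to 304 CPM elsewhere. The part of these cells in the results was not tested, beyond the fits below that leave out libraries. In such bulk samples, fewer cells of a type and less RNA per cell cannot be told apart.

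Over the 5 complexes, 18 of the 82 subunit genes tested were called lower in GW2580 libraries, meaning over 2-fold with p under 0.05 before adjustment, and 0 were called higher. Over all 28419 genes tested, 6.70% were called lower and 4.01% higher with the same rule. No subunit gene, and no gene at all, passed a Benjamini-Hochberg adjusted p of 0.05 (edgeR quasi-likelihood test, smallest adjusted p = 0.280), and 21 subunit genes were lower with an unadjusted p under 0.05, against 8.12% of all genes. DESeq2 gave an adjusted p under 0.05 for 2 subunit genes and 177 genes in all, with no p for 24 subunit genes. The log2 fold change was below 0 for all 82 subunit genes and for 51.6% of all genes tested. Its median was -1.0 over the subunit genes and -0.03 over all genes tested. With library sizes alone in place of TMM factors, 78 of the 82 were below 0 and the medians were -0.79 and 0.23.

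The groups were not uniform. Subunit genes took 0.761 to 1.45% of all gene counts in Vehicle libraries, 0.290, 0.500, 0.331 and 0.278% in GW2580 1 to 4, and 1.34% in GW2580 5. GW2580 5 therefore lay within the vehicle range and the other 4 treated libraries lay below it. At least 4 of the 5 GW2580 libraries were below every Vehicle library for 64 of 82 subunit genes, against 5.69% of all genes tested, and all 5 were below for 7 subunit genes, against 0.985%. GW2580 5 was above every Vehicle library for 27 subunit genes, or 32.9%, against 16.9% of all genes. GW2580 1 and GW2580 4 were the lowest 2 of the 10 libraries for 70 subunit genes, or 85.4%, against 10.1% of all genes. The colour map of subunit genes by library shows the 4 low libraries in complexes I, III, IV and V, while in complex II the median log2 deviation from the vehicle median was -1.01, -0.04, 0.02 and -1.55 in GW2580 1 to 4 and -0.80 in GW2580 5.

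**Figure D1:**
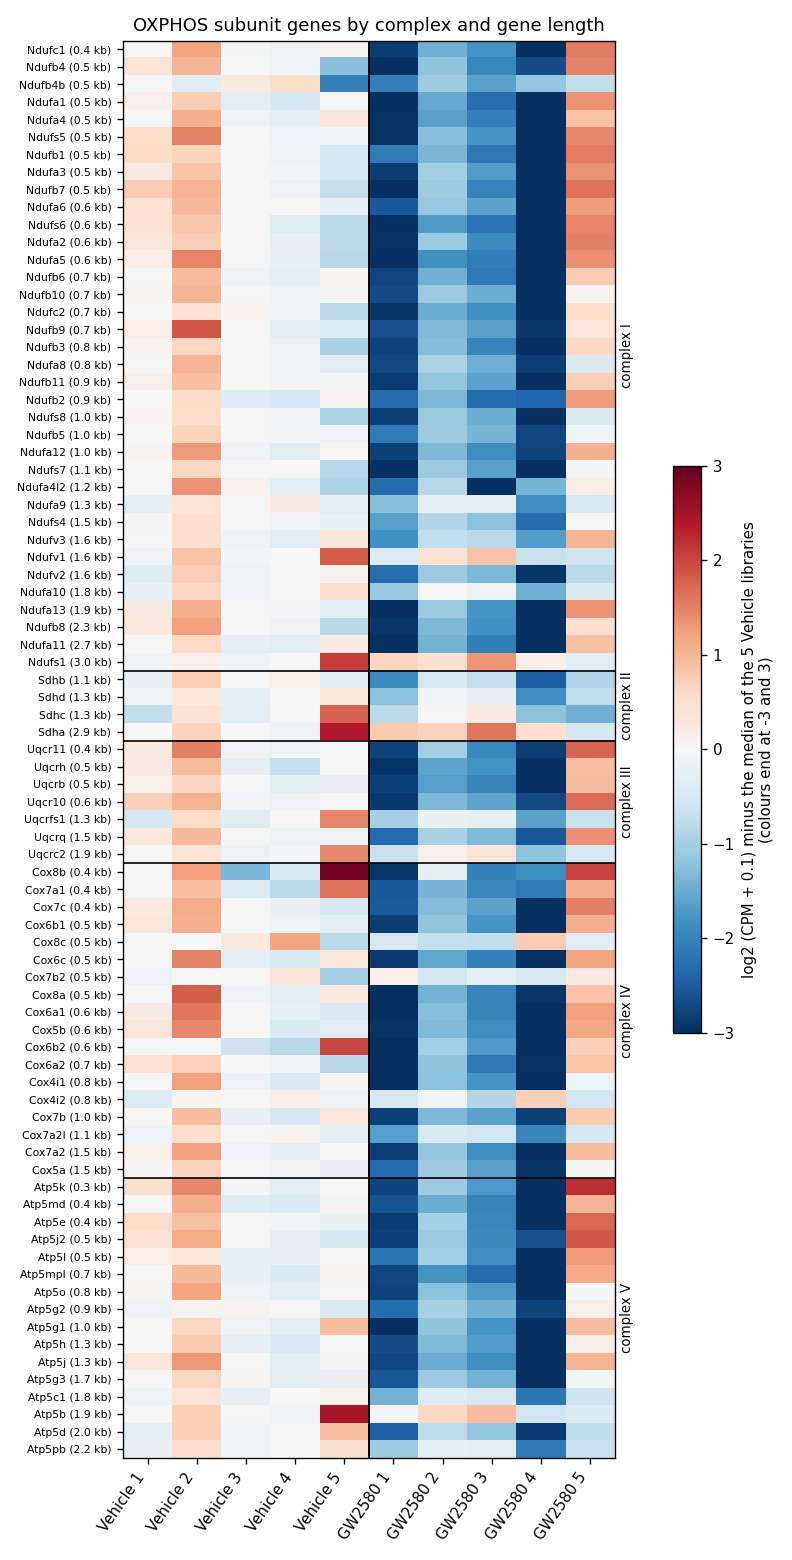
The colour map shows the subunit genes tested, less 1 gene that is not reported here (rows, by complex and then by gene length in kb) in the 10 libraries (columns); colour is log2 (CPM + 0.1) minus the gene's median over the 5 Vehicle libraries, blue for lower and red for higher. GW2580 1 to 4 are blue for most rows, GW2580 5 is pale or red for most rows under 1 kb, and Vehicle 5 is red for longer genes such as Sdha, Ndufs1 and Atp5b.

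Leaving out GW2580 5 raised the number of subunit genes called lower from 18 to 69, against 13.6% of all genes, and moved their median log2 fold change to -2.30. The 69 include all 18. In the same fit, 90.9% of protein-coding genes under 1 kb and over 20 CPM on average were called lower, at a median of -1.91, and 93.8% of the subunit genes under 1 kb, at a median of -2.45. The smallest adjusted p of a subunit gene was then 0.0716, so 0 passed 0.05 (edgeR quasi-likelihood test). Leaving out both Vehicle 5 and GW2580 5 left 67 called lower, against 16.0% of all genes, and 65 with an adjusted p under 0.05, against 11.6%. Vehicle 5 and GW2580 5 were seen to stand apart in these same genes, so the counts without them are a description and not separate support. Vehicle 2 and Vehicle 5 had the highest summed oligodendrocyte and choroid plexus markers of the vehicle libraries. Leaving out this pair left 10 called lower, against 3.40% of all genes, with a median of -0.63. Without Vehicle 5 alone 20 were called lower, against 6.78% of all genes.

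Some of the subunit genes hold short sequence words upstream of their starts. Of the 87 genes, 70 have a RefSeq promoter entry, in 75 windows, and the 250 bases before each start were searched on both strands for short words bound by factors known for nuclear mitochondrial genes. The NRF1 word GCATGCGC was in 8 of the 75 windows, or 10.7%, against 2.26% of all 32851 windows, and the GABPA word CCGGAAG was in 12, or 16.0%, against 6.91%. The SP1 word GGGCGG was in 33.3% against 32.7%, and the YY1 word AAGATGG was in 1 window, or 1.33%, against 4.49%. Only 18 genes had any of the NRF1, GABPA and YY1 words in these bases, and the 50 bases after each start were not searched. None of the 4 words contains another. The 8 tested genes with the NRF1 word had a median log2 fold change of -1.02 and the 59 without it -1.02, and the values for the GABPA word were -0.97 and -1.02. The stretches below are 30 bases long, from GRCm38.p6, 5′ to 3′ on the strand of the gene, and are shown because their genes recur in the results; capitals mark the NRF1 word or, in Uqcr11 and the second Cox6a1 stretch, the GABPA word.
Ndufa8, chr2:36049339-36049368, minus strand: gcgcttgcgcgtcgctggagacGCATGCGC
Sdhb, chr4:140961206-140961235, plus strand: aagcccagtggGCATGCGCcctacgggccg
Uqcr11, chr10:80406869-80406898, minus strand: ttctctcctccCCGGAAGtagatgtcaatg
Cox6a1, chr5:115349101-115349130, minus strand: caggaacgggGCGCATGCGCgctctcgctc
Cox6a1, chr5:115348959-115348988, minus strand: cgtccccatttccgCTTCCGGcgcgccggt
Atp5k, chr5:108434430-108434459, minus strand: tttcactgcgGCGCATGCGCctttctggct
In Cox6a1 and Atp5k the NRF1 word is read on both strands, so 10 bases are in capitals, and the GABPA word of Cox6a1 lies on the opposite strand. A match is a description of the sequence and not a measured binding site.

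Complex I, the NADH dehydrogenase, had 37 subunit genes tested, of which 9 were called lower and 0 higher, with a median log2 fold change of -0.94. Among the 6 tested genes of its catalytic core, which carry the flavin and the iron-sulfur clusters, 3 were called lower and 3 were not. Ndufv2, an iron-sulfur subunit next to the flavin site (chr17:66078795-66101559), was at 106, 230, 127, 138 and 150 CPM in Vehicle 1 to 5 and at 28.1, 64.4, 54.0, 17.8 and 78.9 CPM in GW2580 1 to 5. The groups did not overlap, the means being 150 ± 47.5 CPM in Vehicle and 48.6 ± 25.4 CPM in GW2580 mice (SD, n = 5 per group), and the log2 fold change was -1.63 ± 0.42 (SE, unadjusted p = 0.00166, adjusted p = 0.280, edgeR quasi-likelihood test). An exact 2-sided permutation test gave p = 0.00794, the smallest that 5 against 5 libraries allow.

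Ndufs8, an iron-sulfur subunit on the electron path to ubiquinone (chr19:3908863-3912774), was at 317, 439, 306, 300 and 158 CPM in Vehicle 1 to 5 and at 43.4, 142, 109, 33.2 and 225 CPM in GW2580 1 to 5. Only Vehicle 5 and GW2580 5 crossed, and the log2 fold change was -1.46 ± 0.50 (SE, unadjusted p = 0.0115, adjusted p = 0.280, edgeR). Its neighbour on the same path, Ndufs7, was also called lower, at -1.37 ± 0.57. Ndufs1, the largest core subunit and the longest of the tested subunit genes (2979 bases, chr1:63143592-63176822), was at 35.5, 42.3, 35.2, 38.2 and 160 CPM in Vehicle 1 to 5 and at 60.0, 54.3, 96.4, 44.1 and 29.9 CPM in GW2580 1 to 5. Here GW2580 1 to 4 lay above Vehicle 1 to 4, and the highest value was that of Vehicle 5. The log2 fold change of Ndufs1 was -0.13 ± 0.48 with all libraries and 0.59 without Vehicle 5, and neither passed the test. Ndufv1, the flavin subunit, had the same high Vehicle 5 value (236 CPM) and was not called.

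Of 29 tested accessory subunits of complex I, 5 were called lower: Ndufa8, Ndufb5, Ndufb9, Ndufb10 and Ndufs4. Ndufa8, a subunit of the intermembrane face (chr2:36036324-36049338), was at 169, 345, 172, 155 and 136 CPM in Vehicle 1 to 5 and at 25.8, 87.4, 61.1, 23.9 and 125 CPM in GW2580 1 to 5. All 5 treated libraries were below all 5 vehicle libraries, and the log2 fold change was -1.60 ± 0.48 (SE, unadjusted p = 0.00522, adjusted p = 0.280, edgeR). Other accessory genes with many counts per kb of gene length behaved otherwise in GW2580 5. Ndufb7 was at 66.3 to 215 CPM in Vehicle libraries, at 12.7, 50.7, 26.7 and 9.18 CPM in GW2580 1 to 4 and at 331 CPM in GW2580 5, the highest of the 10. Ndufa4, named for complex I but a component of complex IV, was at 89.7 to 235 CPM with vehicle, at 14.2, 36.2, 26.6 and 7.24 CPM in GW2580 1 to 4 and at 200 CPM in GW2580 5. Their log2 fold changes of -0.62 ± 0.81 and -1.27 ± 0.72 were not called, and became -2.49 ± 0.56 and -2.77 ± 0.51 without GW2580 5. Of all accessory subunits, 27 of 29 were called lower without that library, against 13.6% of all genes. In that fit 90.9% of protein-coding genes under 1 kb and over 20 CPM on average were called lower too.

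The paralogs of complex I genes were at low levels. Ndufb4b, a copy of Ndufb4 whose reads can be hard to tell from it, was at 0.618 to 4.25 CPM with vehicle and 0.616 to 1.69 CPM with GW2580 and was called lower, at -1.24 ± 0.48. Ndufa4l2, the hypoxia-inducible relative of Ndufa4, was at 0.562 to 3.08 CPM with vehicle and at 0 to 1.29 CPM with GW2580, and was not called.

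Complex II, the succinate dehydrogenase, is built from 4 subunits in equal number, and its transcripts did not move together. Sdhb, the iron-sulfur subunit (chr4:140961271-140979198), was at 215, 409, 247, 276 and 191 CPM in Vehicle 1 to 5 and at 66.6, 179, 151, 44.0 and 135 CPM in GW2580 1 to 5. The groups did not overlap, and Sdhb was called lower at a log2 fold change of -1.22 ± 0.42 (SE, unadjusted p = 0.0111, adjusted p = 0.280, edgeR). Sdha, the flavoprotein subunit that oxidises succinate (chr13:74322255-74350240), was at 117, 185, 117, 105 and 623 CPM in Vehicle 1 to 5 and at 203, 187, 360, 166 and 82.5 CPM in GW2580 1 to 5. Its groups overlapped widely, with GW2580 1 to 3 above Vehicle 1 to 4 and GW2580 5 below every other library. The log2 fold change of Sdha was -0.20 ± 0.54 with all libraries and 0.61 without Vehicle 5, and neither passed the test.

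The ratio of Sdha to Sdhb counts set these libraries apart more sharply than either gene. It was 0.545, 0.452, 0.473 and 0.380 in Vehicle 1 to 4 and 0.613 in GW2580 5, but 3.26 in Vehicle 5 and 3.04, 1.05, 2.37 and 3.78 in GW2580 1 to 4. The ratio is within a library and does not depend on its scaling, and it shows unequal change of the 2 genes, whose lengths are 2859 and 1079 bases. The same split was seen in complex I, where the ratio of Ndufs1 to Ndufs8 was 0.0963 to 0.127 in Vehicle 1 to 4, 0.133 in GW2580 5 and 0.382 to 1.38 in the other 5 libraries. These ratios were chosen after the values were seen. The membrane anchors Sdhc and Sdhd, which hold the complex in the membrane and help form its ubiquinone site, were at 54.4 to 308 and 137 to 204 CPM with vehicle and at 33.2 to 106 and 45.1 to 157 CPM with GW2580. They were not called, at log2 fold changes of -1.02 ± 0.50 and -0.74 ± 0.37.

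**Figure D2:**
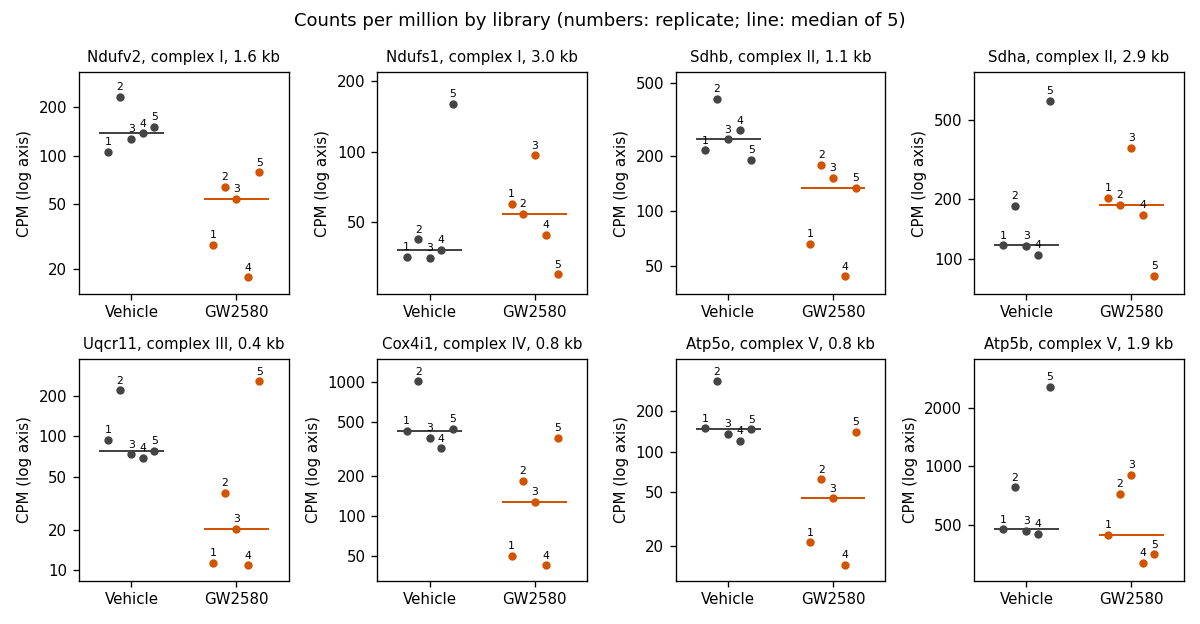
Each panel gives CPM (log axis) of 1 subunit gene in the 5 Vehicle and 5 GW2580 libraries; each point is a library with its replicate number, and the line is the group median. GW2580 5 is the highest treated library for Ndufv2, Uqcr11, Cox4i1 and Atp5o and the lowest for Ndufs1 and Sdha, and Vehicle 5 is the highest library for Ndufs1, Sdha and Atp5b.

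Complex III, the cytochrome bc1 complex, had 7 subunit genes tested, 1 called lower and 0 higher, with a median log2 fold change of -0.72. Uqcrfs1, the Rieske iron-sulfur protein (chr13:30540312-30545316), was at 69.3, 145, 77.3, 99.6 and 275 CPM in Vehicle 1 to 5 and at 49.9, 86.1, 83.7, 32.9 and 62.4 CPM in GW2580 1 to 5. The groups overlapped, and its call, at -1.08 ± 0.43, was not stable. Without Vehicle 5 the log2 fold change was -0.63 and not called. In all, the call was lost in 10 of 22 alternative fits, with values from -1.34 to -0.38. The core subunit Uqcrc2 had the same high Vehicle 5 value, 222 CPM against 71.6 to 108 CPM in Vehicle 1 to 4, and was at 35.5 to 107 CPM with GW2580, not called at -0.72 ± 0.41. The 5 small subunits, which surround the core, were lower in GW2580 1 to 4 than in every Vehicle library without exception, while GW2580 5 was above every Vehicle library in 4 of them. Uqcr11 was at 94.0, 221, 73.6, 69.4 and 77.6 CPM in Vehicle 1 to 5, at 11.2, 37.7, 20.3 and 10.8 CPM in GW2580 1 to 4 and at 259 CPM in GW2580 5. With all libraries 0 of the 5 were called, and without GW2580 5 all 5 were, at a median of -2.48. Of all genes, 6.70% and 13.6% were called lower in these fits, and of protein-coding genes under 1 kb and over 20 CPM 31.7% and 90.9%. Uqcrb and Uqcrh, the others with the most counts per kb of gene length, moved to -2.53 ± 0.45 and -2.47 ± 0.48.

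Complex IV, the cytochrome c oxidase, had the most abundant subunit transcripts per kb of gene length and the lowest median log2 fold change of the 5 complexes, -1.08 over 18 genes. Of its 10 ubiquitous subunits, 2 were called lower and 0 higher, and all 10 were below every Vehicle library in GW2580 1 to 4. Cox4i1, the usual form of the largest nuclear subunit (chr8:120668225-120674209), was at 435, 1014, 386, 320 and 448 CPM in Vehicle 1 to 5 and at 50.2, 184, 127, 42.8 and 385 CPM in GW2580 1 to 5. It had the lowest log2 fold change of all subunit genes, -1.72 ± 0.59 (SE, unadjusted p = 0.0107, adjusted p = 0.280, edgeR), and only GW2580 5 lay inside the vehicle range. Cox5a, which sits beside Cox4i1 on the matrix side, was called lower at -1.33 ± 0.49. Cox6a1 and Cox8a, ubiquitous forms of subunits that have a muscle isoform, were at 216 to 904 and 185 to 826 CPM with vehicle. Both were several-fold lower in GW2580 1 to 4 (33.6 to 126 and 26.8 to 88.0 CPM) but at 716 and 429 CPM in GW2580 5, and were not called, at -1.04 ± 0.78 and -1.48 ± 0.73.

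In counts per kb of gene length, Cox6a1, Cox4i1 and Cox8a led the family with vehicle, at 715 ± 500, 681 ± 367 and 647 ± 492 CPM per kb (SD, n = 5), which do not differ beyond their spread. Atp5b of complex V followed at 505 ± 489. The highest genes of complex I, III and II were lower, at 296 ± 97.0 for Ndufs8, 246 ± 148 for Uqcr11 and 248 ± 79.1 for Sdhb. With GW2580 the leading 3 were at 347 ± 516, 207 ± 183 and 233 ± 313 CPM per kb, and GW2580 5 was the highest treated library for each.

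The isoforms of complex IV known from muscle, lung or testis were at lower levels than the ubiquitous forms, and they did not share a pattern. Cox4i2, the lung and hypoxia form of Cox4i1, was at 2.53 to 3.85 CPM with vehicle and 1.78 to 5.59 CPM with GW2580, with a log2 fold change of -0.11 ± 0.36. Cox7b2, a testis form, was at 1.01 to 2.87 and 1.45 to 2.57 CPM, with a log2 fold change of -0.07 ± 0.37, and Cox8c, also of testis, was at 0.955 to 4.08 and 1.00 to 3.03 CPM. These 3 genes are under 1 kb, yet their GW2580 and Vehicle values overlapped. The heart and muscle forms Cox6a2 and Cox7a1 and the testis form Cox6b2 were below every Vehicle library in GW2580 1 to 4. Cox6a2 was at 3.88 to 11.3 CPM with vehicle, 0.616 to 2.97 CPM in GW2580 1 to 4 and 12.5 CPM in GW2580 5, and Cox7a1 was at 0.746 to 4.44 CPM, 0.154 to 0.461 CPM and 2.98 CPM. Cox6b2 was at 4.08 to 29.3 CPM with vehicle, 0.514 to 3.56 CPM in GW2580 1 to 4 and 12.1 CPM in GW2580 5, not called at -1.50 ± 0.80. The muscle form Cox8b was at 0.501 to 11.5 CPM with vehicle and 0.103 to 6.16 CPM with GW2580, and its groups overlapped. The ratio of Cox4i1 to Cox4i2 was 83.1 to 284 with vehicle, 21.2, 58.2, 71.5 and 7.67 in GW2580 1 to 4 and 172 in GW2580 5. Cox7a2l, an assembly factor of supercomplexes that resembles Cox7a2, was at 48.6 to 86.1 CPM with vehicle and 15.2 to 44.0 CPM with GW2580. Its groups did not overlap (exact permutation p = 0.00794), but at -0.95 ± 0.36 its change was under 2-fold and it was not called.

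Complex V, the ATP synthase, had 16 subunit genes tested, 5 called lower and 0 higher, with a median log2 fold change of -0.95. Atp5d, the delta subunit of the central stalk (chr10:80138698-80145828), was at 252.1, 502, 288, 305 and 567 CPM in Vehicle 1 to 5 and at 55.9, 180, 136, 41.9 and 178 CPM in GW2580 1 to 5. The groups did not overlap, and the log2 fold change was -1.69 ± 0.46 (SE, unadjusted p = 0.00261, adjusted p = 0.280, edgeR). Atp5b, the catalytic beta subunit (chr10:128083307-128090388), was at 474, 780, 466, 451 and 2573 CPM in Vehicle 1 to 5 and at 446, 723, 906, 319 and 353 CPM in GW2580 1 to 5. Its groups overlapped, and its log2 fold change of -0.79 ± 0.55 became 0.02 without Vehicle 5. The gamma subunit Atp5c1 and the peripheral stalk subunit Atp5pb had groups that did not overlap, and changes just under 2-fold (-0.92 ± 0.37 and -0.93 ± 0.38).

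The peripheral stalk, which keeps the head from turning with the rotor, had 2 of 4 genes called lower, Atp5o and Atp5h. Atp5o (chr16:91925223-91931630) was at 149, 330, 135, 120 and 146 CPM in Vehicle 1 to 5 and at 21.3, 62.3, 45.1, 14.4 and 140 CPM in GW2580 1 to 5, at a log2 fold change of -1.64 ± 0.56. Of the 3 genes for the c ring, the rotor that the protons turn, Atp5g2 and Atp5g3 were called lower and Atp5g1 was not (-1.12 ± 0.68). The small membrane subunits were high in GW2580 5. Atp5k, the shortest gene of the family (320 bases), was at 23.3, 45.2, 15.9, 13.3 and 16.7 CPM in Vehicle 1 to 5, at 2.36, 7.78, 4.95 and 1.75 CPM in GW2580 1 to 4 and at 77.5 CPM in GW2580 5. Of these 5 membrane genes, 0 were called with all libraries and 5 without GW2580 5, when Atp5k moved from -0.28 ± 0.86 to -2.52 ± 0.53 and Atp5j2 from -0.38 ± 0.79 to -2.32 ± 0.48. The shares called lower in these fits were 6.70% and 13.6% of all genes, and 31.7% and 90.9% of protein-coding genes under 1 kb and over 20 CPM.

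The subunit genes are short, with a median length of 768 bases over the exons of all annotated transcripts, against 2775 bases for all genes tested. Length and change were related within most libraries, and not in the same direction. The Spearman rho between a gene's length and its log2 deviation from the vehicle median was 0.411, 0.447, 0.555 and 0.306 in GW2580 1 to 4 and -0.650 in GW2580 5, over 82 genes that share a library and are not independent. In Vehicle 1 to 5 the rho was -0.462, -0.366, -0.067, 0.307 and 0.305, so untreated libraries also had slopes, in both directions. The deviation had a median of -2.82, -1.23, -1.85 and -3.19 in GW2580 1 to 4 over the 48 genes under 1 kb, and 1.12 in GW2580 5. Over the 6 genes of 2 to 4 kb it was -0.90, 0.00, 0.14, -1.67 and -0.41. Vehicle 5 was the highest of the 10 libraries for 14 subunit genes, or 17.1%, against 23.0% of all genes, and differed from the other vehicle libraries mainly in the longer genes, at 0.89 for 2 to 4 kb against -0.17 for genes under 1 kb.

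**Figure D3:**
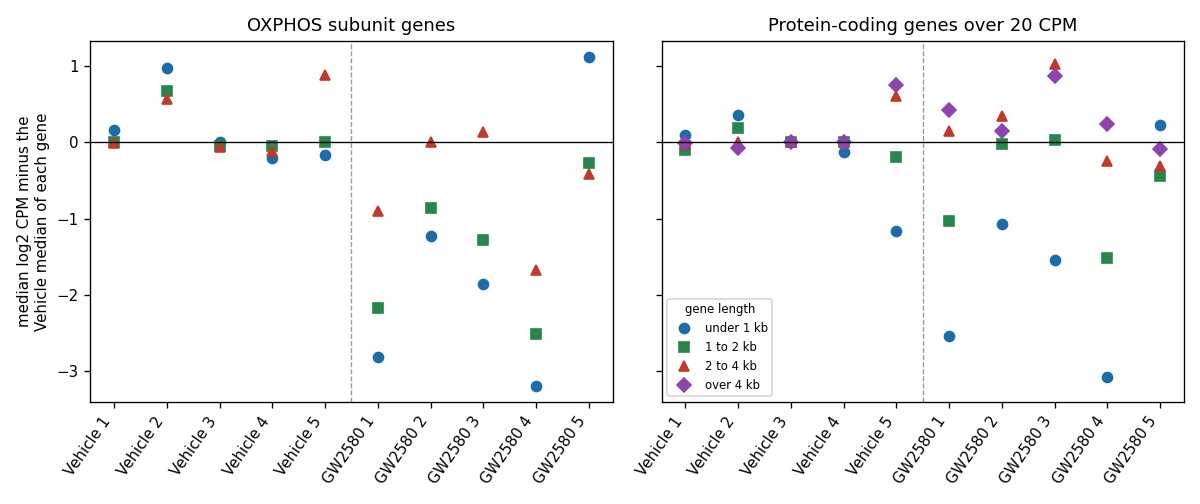
Points give, for each library, the median over genes of log2 CPM minus the gene's median over the 5 Vehicle libraries, by gene length class, for the OXPHOS subunit genes (left) and for protein-coding genes over 20 CPM on average (right); the dashed line separates the groups. In GW2580 1 to 4 genes under 1 kb lie from -1.07 to -3.19 in both panels, and in GW2580 5 they lie at 1.12 and 0.23.

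Other protein-coding genes also varied with length. Among protein-coding genes over 20 CPM on average, the median log2 fold change was -1.01 over 363 genes under 1 kb, -0.54 over 1145 genes of 1 to 2 kb, 0.05 over 2418 genes of 2 to 4 kb and 0.13 over 3447 genes over 4 kb. Over the subunit genes it was -0.97, -1.08 and -0.77 for the 3 shorter classes. Spearman's rho of log2 fold change with length was 0.41 over the 7373 protein-coding genes and -0.15 over the subunit genes. Of genes under 1 kb, 31.7% of these protein-coding genes and 14.6% of the subunit genes (7 of 48) were called lower, and of 1 to 2 kb 17.6% and 39.3% (11 of 28). With a trend of counts with gene length removed within each library, 23 subunit genes were called lower, against 7.10% of all genes. Their median log2 fold change was then -1.17. That trend was fitted over all 28419 genes tested, where rho of log2 fold change with length was 0.01. It therefore need not remove the stronger relation seen in the protein-coding genes over 20 CPM. No test of a difference between the subunit genes and other genes of their length was made.

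With all libraries, this rho was -0.15 for the subunit genes, and without GW2580 5 it was 0.55 (82 genes, a description). The scatter of fold change against length shows both. Of the 13 genes that were not called without GW2580 5, 3 are the testis and lung isoforms Cox7b2, Cox8c and Cox4i2 and the other 10 are 1285 to 2979 bases long, among them Ndufs1, Ndufv1, Sdha, Sdhc, Sdhd, Uqcrc2 and Atp5b. The long genes Ndufa11 and Ndufb8 went with the short ones (2661 and 2332 bases, -2.49 and -2.50 without GW2580 5), and have principal transcripts of 545 and 680 bases in GENCODE M21. Where several transcripts ranked equally as principal, the longest was taken. Ndufb2, Atp5g1 and Atp5md, with gene lengths of 936, 998 and 363 bases, were then given 4371, 4715 and 2733 bases, and were at -2.08, -2.42 and -2.46. These 3 lengths exceed all exons counted for the genes, so they need not be those of the transcripts counted. With principal transcript length, known for 80 of the 82, rho was -0.01 with all libraries and 0.56 without GW2580 5. The percentage of fragments on no exon was 68.0 and 70.8% in GW2580 1 and 4, the lowest in subunit transcripts, 56.1 and 47.1% in GW2580 2 and 3 and 64.7% in GW2580 5. With this percentage as a term in the fit, 7 subunit genes were called lower, against 2.86% of all genes.

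**Figure D4:**
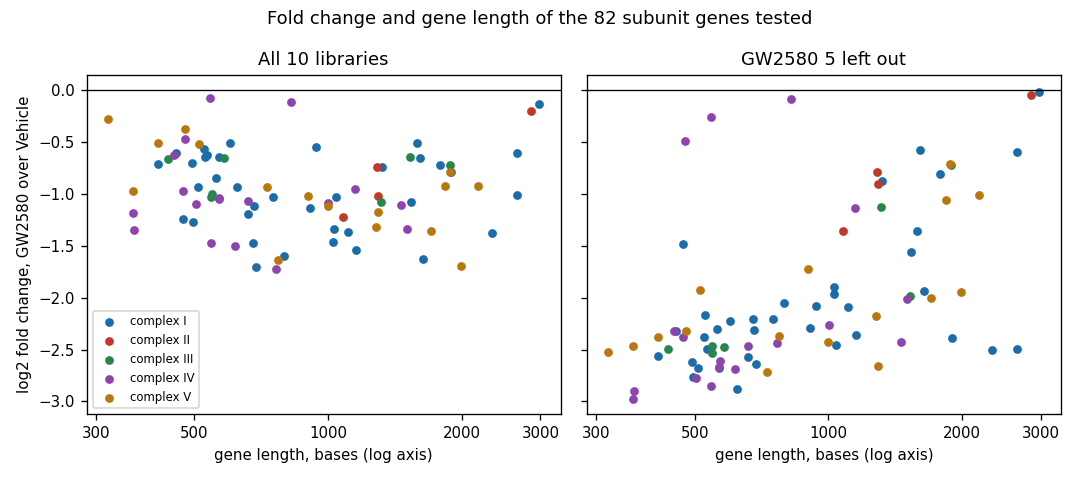
Each point is 1 of the 82 subunit genes tested, by gene length in bases (log axis) and log2 fold change of GW2580 over Vehicle, coloured by complex; left with all 10 libraries, right without GW2580 5. The medians are -1.0 and -2.30, and Spearman's rho with length is -0.15 and 0.55.

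Assembly factors, which build the complexes without being part of them, were called lower in part. For complexes I to V, 2 of 16, 2 of 4, 0 of 6, 4 of 22 and 1 of 5 tested genes were called lower and 0 were called higher, where 6.70% of all genes were called lower, with median log2 fold changes of -0.48, -0.86, -0.25, -0.61 and -0.31. Those called include Surf1, needed for complex IV (-1.14 ± 0.40, SE), and Sdhaf1 and Sdhaf4, which mature the Sdhb and Sdha proteins (-1.22 and -1.48). The 2 genes called for complex I were Ndufaf3 and Ndufab1, the latter an acyl carrier protein that is also a subunit but is not taken by the symbol rule (-1.19). Of 17 electron carrier genes 3 were called lower, among them Etfb, a subunit of the electron transfer flavoprotein (210 ± 50.4 and 69.2 ± 48.0 CPM in Vehicle and GW2580, SD, n = 5, log2 fold change -1.60), and Coq7, an enzyme of ubiquinone synthesis (-1.56). Of 14 tricarboxylic acid cycle enzymes 1 was called lower, Suclg1 (-1.01), and of 9 carriers of the mitochondrial membranes 3, among them the ADP/ATP carrier Slc25a4 (-1.58). Suclg1 and Slc25a4 were not called without Vehicle 5 (-0.73 and -0.95). Of 15 regulators of mitochondrial biogenesis 0 were called in either direction (edgeR), with a median of 0.07. Nrf1, the factor whose word was searched above, was at 44.4 ± 5.02 and 70.6 ± 24.9 CPM (SD, n = 5 each), at a log2 fold change of 0.67.

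The male mice alone, 2 against 2, gave 66 subunit genes called lower, against 16.8% of all genes tested, and the female mice alone, 3 against 3, gave 2, against 2.33%. The median log2 fold change of the subunit genes was -2.39 in male and -0.44 in female mice, and in female mice it was 0.16 for the small subunits of complex III and 0.08 for the membrane subunits of complex V. The difference between the sexes was tested as an interaction, for which 3 of 82 subunit genes had an unadjusted p under 0.05, against 2.52% of all genes, and 0 had an adjusted p under 0.05 (edgeR). Vehicle 5 and GW2580 5, which were left out in fits above, are both from female mice.

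The remaining members could not be tested. Ndufb4c was under the filter, Atp5a1, Ndufa7 and Uqcrc1 were at 0 counts in every library and Ndufs3 had 1 count in all. These encode the alpha subunit of the ATP synthase head, an accessory and a core subunit of complex I and a core subunit of complex III, so each of 3 complexes lacks a main component here. The 4 genes at 0 or 1 count are annotated on more than 1 sequence of the assembly, a chromosome and a patch or alternate scaffold, as are 1867 of the genes counted, of which 38.2% had 0 counts against 3.05% of the others. Only fragments that align once were counted.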

How the data were processed

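Counts of fragments per gene were deposited by the authors, who aligned reads to GRCm38 with STAR and counted uniquely aligned fragments over RefSeq exons without strand using featureCounts (1.6.3 per the file headers). From these counts, genes over 1 CPM in at least 3 libraries were fitted in R 4.3.3 with edgeR 4.0.16 (TMM, quasi-likelihood test, GW2580 against Vehicle, all 10 mice), and p-values were adjusted over all genes tested. The rule used for calls required more than a 2-fold difference and p under 0.05 before adjustment. Single values were tested by exact permutation. On simulated counts over 28419 genes, an unadjusted p under 0.05 was reached by 93.2% of genes set to a log2 change of -2, 54.5% of those set to -1 and 4.43% of unchanged genes. An adjusted p under 0.05 was reached by 22.0% of those set to -2, 2.27% of those set to -1 and 0.0106% of unchanged ones. The error rate in the 10 libraries themselves was not tested. Named genes were the 3 of each complex with the highest level per kb, the 2 with the smallest p, the 5 with the highest log2 fold change, the Sdh genes, Ndufs8, Ndufa4 and the Cox isoform sets. Ndufs7, Ndufv1, Ndufb4b, Ndufa4l2, Ndufa11, Ndufb8, Ndufb2, Cox6b2, Cox8c, Atp5md, Atp5c1, Atp5pb, Atp5h and the other c ring genes were named after their values were seen, as were the grouping by role and the count ratios. Ndufb5, Ndufb9, Ndufb10, Ndufs4 and the assembly factor Ndufaf3 were named because they were called lower. Members and gene lists were chosen with earlier results of these data known. Upstream sequence came from RefSeq (GRCm38.p6). The alternatives tried were other scalings, DESeq2 1.42.0, no filter, added terms, each sex, and leaving out libraries. The pattern also matched 11 pseudogenes, which were left out. The values of 1 subunit gene are not reported here.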

Additional observations from a re-analysis of the deposited data

Results flagged for a closer look

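In 33 of 74 groups of 5 libraries, 1 library stood apart from the other 4, by the gap to its nearest neighbour over the group's range (above 0.71). Chance flags about 1 in 20 groups, and these groups share the same libraries. GW2580 5 was the highest treated library for Atp5g1 (0.816), Atp5j2 (0.908), Atp5k (0.920), Cox6a1 (0.865), Cox6a2 (0.803), Cox7a1 (0.891), Cox7a2 (0.815), Cox8a (0.848), Cox8b (0.821), Ndufa4 (0.850), Ndufb7 (0.871), Uqcr11 (0.892), Uqcrb (0.866) and Uqcrh (0.867), and for the summed CPM of complex I (0.722), complex III (0.765) and complex IV (0.804). Vehicle 2 was the highest vehicle library for Atp5o (0.862), Cox4i1 (0.815), Cox5a (0.756), Cox6a1 (0.794), Cox7a2 (0.787), Cox8a (0.820), Ndufa8 (0.829) and Uqcr11 (0.838), and for the summed CPM of complex I (0.840) and complex IV (0.840). Vehicle 5 was the highest vehicle library for Atp5b (0.845), Cox8b (0.726), Ndufs1 (0.943), Sdha (0.845), Sdhc (0.732) and Uqcrc2 (0.757).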

How the results depend on the processing

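The median log2 fold change of the subunit genes was below 0 under every alternative run, but the number called lower, 18, was not stable. It was 65 with the replicate block (5.27% of all genes), 7 with the percentage on no annotated exon as a term, 66 in male and 2 in female mice, 10 without Vehicle 2 and 5, 67 without Vehicle 5 and GW2580 5, and 11 to 69 when 1 library was left out (11 without Vehicle 2 or GW2580 1, 69 without GW2580 5). Without GW2580 1 and 4, chosen after seeing the data, it was 6. Vehicle 5 and GW2580 5 too are libraries that stand apart in these genes. The share of all genes called lower is not given here for this 6 and for the 11. Without GW2580 1 and 4, 1028 of all genes were called in either direction, in place of 3046. That total was 4802 with no filter on low counts, 1730 with the percentage on no exon as a term, 6583 in male and 1043 in female mice, 6650 without Vehicle 5 and GW2580 5, and 1803 (without GW2580 1) to 5165 (without GW2580 5) with 1 library left out. The median of -1.0 became -2.39 in male mice, -2.37 without Vehicle 5 and GW2580 5 and -2.30 without GW2580 5, and -0.44 in female mice (-0.46, -0.96, -0.10, -0.32 and -0.70 for complexes I to V). In the first 3 of these fits it was -2.40, -2.40 and -2.29 for complex I, -2.62, -2.52 and -2.47 for complex III, -2.62, -2.45 and -2.43 for complex IV, and -2.30, -2.23 and -2.25 for complex V. With 1 library left out, the highest of these medians were -0.74 over all subunit genes, -0.63 for complex I, -0.55 for complex III, -0.78 for complex IV and -0.72 for complex V, and the lowest were those without GW2580 5. Spearman's rho with length was 0.52, 0.51 and 0.55, and -0.39 to 0.55 with 1 library left out. Same-numbered libraries did not deviate together (correlations of 0.08, 0.13, -0.05, -0.07 and -0.39). They share a number and the sex of the mouse, and the labels give no other link. The replicate block, which pairs them, gave -1.87 for complex III and a rho of 0.41. The sign of single genes turned as follows. For Sdha it was 0.019 with library size alone, 0.17 with the block, 0.52 with the exon term, 0.30 in male mice, 0.82 without Vehicle 2 and 5, 0.71 without Vehicle 5 and GW2580 5, and -0.52 to 0.61 with 1 library left out (0.61 without Vehicle 5). For Ndufs1 the same alternatives gave 0.086, 0.16, 0.46, 0.49, 0.65, 0.66 and -0.40 to 0.59. Atp5b was at 0.021 with the exon term, 0.24 without Vehicle 2 and 5, 0.051 without Vehicle 5 and GW2580 5, and -1.04 to 0.017 with 1 library left out. Cox8b was at 0.10 with the exon term and 0.65 without Vehicle 2 and 5. In female mice Atp5j2 was at 0.67, Atp5k at 0.87, Cox6a1 at 0.11, Ndufb7 at 0.45 and Uqcr11 at 0.40. Atp5k was at 0.10 without Vehicle 2 and 5 and at -2.52 to 0.12 with 1 library left out, when Cox4i2 was at -0.46 to 0.030 and Cox7b2 at -0.26 to 0.088, and library size alone gave 0.29 for Cox4i2 and 0.18 for Cox7b2. The causes were not tested. Over the named genes and alternatives, 570 values kept their direction and side of the threshold, 72 passed it in addition, 20 no longer passed it and 35 changed sign.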
